A study of Schmidtea mediterranea with 14 samples.

Results

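Lipid transport transcripts were followed in whole planarians (*Schmidtea mediterranea*, asexual clonal line CIW4) in which both *apolipoprotein b* orthologs, *apob-1* and *apob-2*, had been knocked down by RNA interference. The transcripts were taken from a sheet in which the study lists dd_Smed_v6 transcripts annotated with the Gene Ontology term lipid transport in a separate transcriptome of regenerating fragments. That sheet held 60 identifiers. The *apob-1*, *apob-2*, *mttp*, *ldlr-1*, *ldlr-2* and *vldlr-1* transcripts were set aside, of which 4 were in the sheet. Of the remaining 56 transcripts, 54 had a level of at least 1 CPM (counts scaled to library size) in at least 4 of the 14 libraries and were among the 18436 transcripts tested. The other 2, dd_Smed_v6_37604_0_1 and dd_Smed_v6_50971_0_1, reached 1 CPM in 0 and 1 libraries. The transcript just inside that limit, dd_Smed_v6_41749_0_1, reached it in 6 libraries and lay between 0.323 and 1.26 CPM.

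Libraries were made from total RNA of uninjured animals in 3 groups. The 4 *apob-S* libraries came from animals fed dsRNA of *apob-1* and *apob-2* together that had lost pigment severely, and the 4 *apob-M* libraries from animals fed the same dsRNA whose loss of pigment was mild. The 6 control libraries came from animals given *egfp* dsRNA, which encodes green fluorescent protein and has no counterpart in planarians. In all groups dsRNA was fed 3 times and a fast of 7 days came before RNA extraction, and each library pooled 5 to 6 animals. The *apob-S* and *apob-M* animals were sorted by appearance and not assigned at random, so that severity cannot be told apart from anything else that differs between animals of these classes. Total counts were between 16839133 and 23039326 per library. A single transcript outside the list, dd_Smed_v6_4_1_1, took 5.36% of the counts in *apob-S* replicate 2 and 7.28% in *apob-M* replicate 3. It took 2.43% and 2.05% in control replicates 1 and 2, 1.32% in *apob-S* replicate 3, and 0.0466% to 0.522% in the other libraries. Both dsRNA targets were below every control library in all apob(RNAi) libraries, with *apob-1* at 288 ± 41.6 normalized CPM in *apob-S* and 266.8 ± 32.8 in *apob-M*, against 1414 ± 184 in control (SD, n = 4, 4 and 6), although counts do not separate fed dsRNA from mRNA.

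Lipids do not dissolve in water and are moved by dedicated proteins. Lipoproteins, built around apolipoprotein B with the help of the microsomal transfer protein MTTP, carry neutral lipids and cholesterol between tissues, and receptors of the LDL receptor family take them up. Inside cells, flippases turn phospholipids from one face of a membrane to the other, transfer proteins carry sterols and glycolipids between membranes, perilipins coat the lipid droplets in which neutral lipids are stored, and transcription factors of the SREBP family respond to sterol levels. In planarians, neutral lipids from food are stored in the intestine. Human best hits were held for 10 of the 54 transcripts, and *npc2* is a name given by the study. The remaining transcripts are described by their annotation alone, and the roles given for best hits are those of the human proteins.

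In *apob-S* animals, 17 of the 54 lipid transport transcripts were higher than in control and 10 were lower, by edgeR's quasi-likelihood test with Benjamini-Hochberg adjustment over all tested transcripts at 0.05. These were 31.5% and 18.5% of the list, against 13.5% and 15.7% of all tested transcripts. The *apob-M* animals had 10 above control and 6 lower, or 18.5% and 11.1% of the list, against 7.05% and 8.24% of all tested transcripts. Between *apob-S* and *apob-M*, 6 were higher and 6 lower in *apob-S*, 11.1% each way, against 5.17% and 6.86% of all tested transcripts. The share called lower was thus close to the background in *apob-S*, while the share called higher was above it in all 3 comparisons. In either direction these were 50% of the list against 29.3% of all tested transcripts for *apob-S*, 29.6% against 15.3% for *apob-M*, and 22.2% against 12% between the classes. The list was not a random draw of transcripts, and no test of the list was made.

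Most changes were small. The median log2 fold change over the 54 transcripts was 0.06 in *apob-S* against −0.0027 over all tested transcripts, and 0.03 in *apob-M* against −0.0025 over all. Against control, 2 transcripts in either class changed by more than 2-fold, dd_Smed_v6_11210_0_1 upward and dd_Smed_v6_4411_0_1 downward. In all, 30 transcripts were called in at least 1 of the 3 comparisons and 24 in none of them. The comparisons with control share the same 6 control libraries, and values for *apob-S* and *apob-M* are therefore given side by side. The 27 transcripts not called in *apob-S* had log2 fold changes between −0.25 and 0.40, and the 38 not called in *apob-M* between −0.27 and 0.30. Every library of *apob-S* lay above every control library for 13 transcripts and below for 8, or 24.1% and 14.8% of the list, against 10.4% and 11.7% of all tested transcripts. The counts for *apob-M* were 10 above and 5 below, or 18.5% and 9.26%, against 6.09% and 6.44% of all tested transcripts. Groups did not overlap in either direction for 38.9% of the list in *apob-S* against 22.1% of all tested transcripts, and for 27.8% in *apob-M* against 12.5%. Calls were mostly of well-measured transcripts. Of the 41 with a control mean of at least 10 normalized CPM, 26 were called in *apob-S*, and of the 13 below that level 1 was called. Of all tested transcripts at any level, 29.3% were called in *apob-S*. That share was not taken by level, so this split is not shown to be particular to the list.

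**Figure D1:**
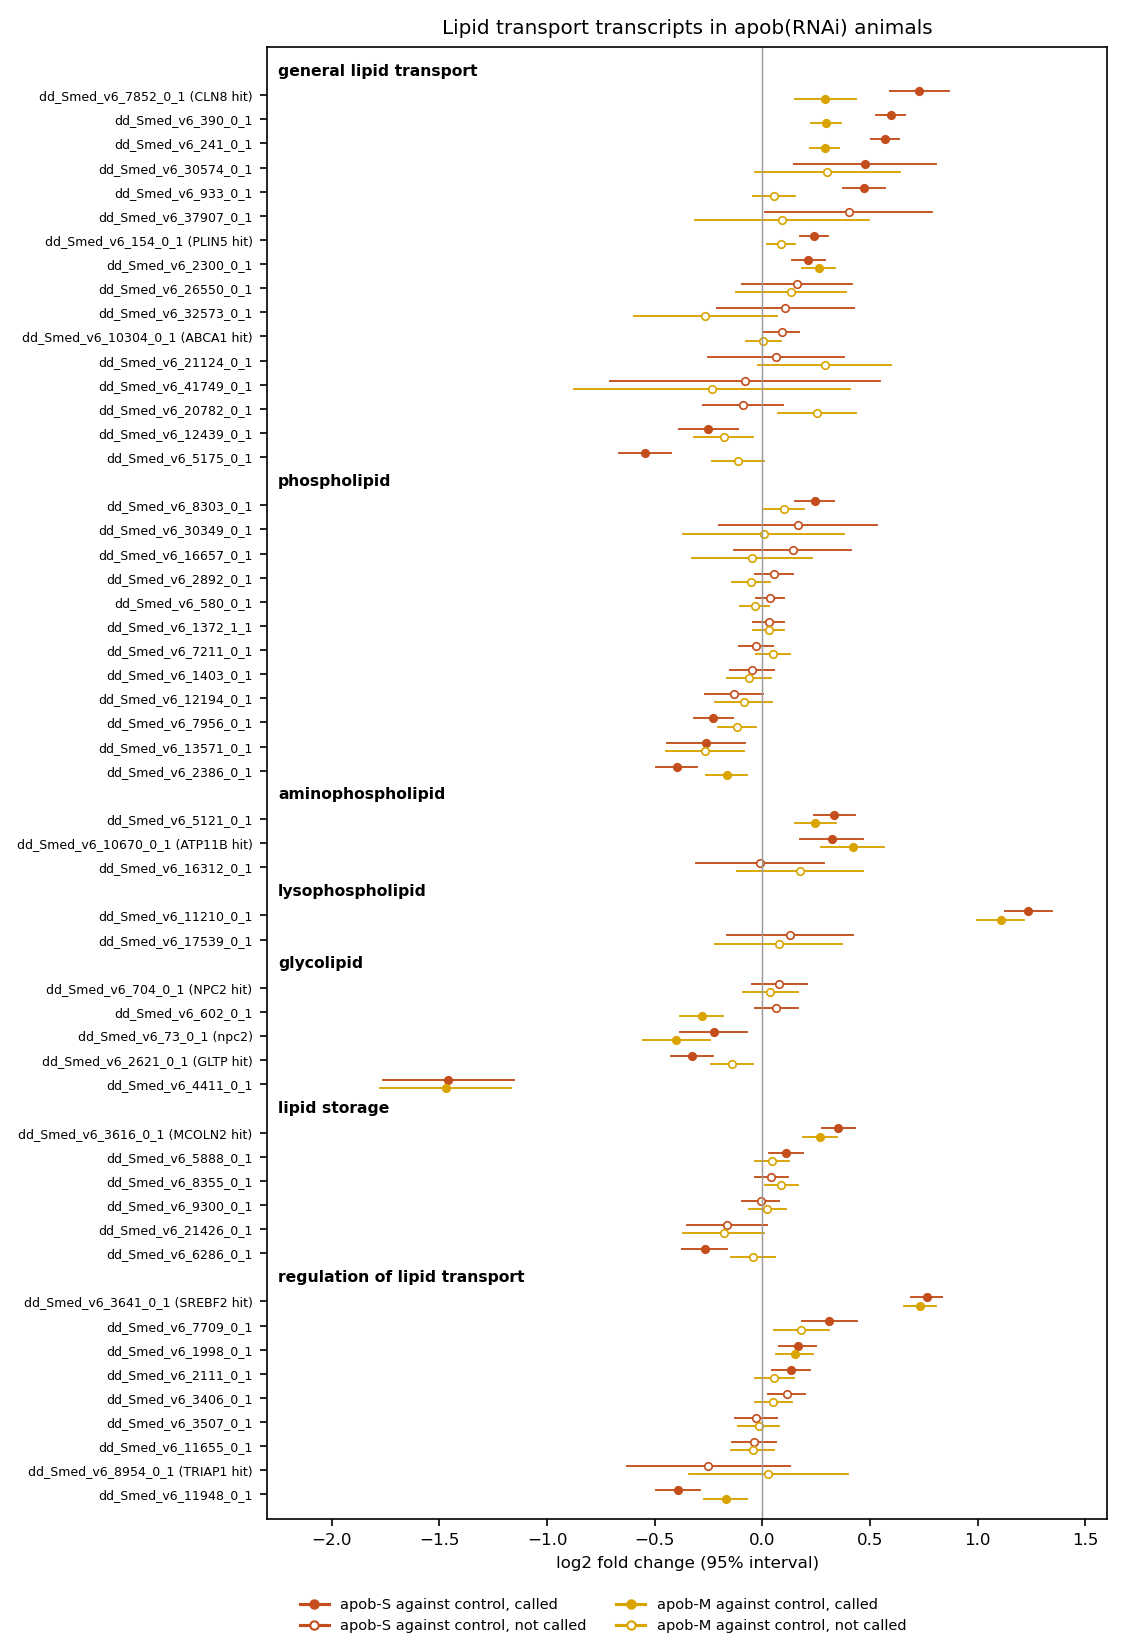
Log2 fold change (horizontal axis, with 95% intervals) of 53 of the 54 tested lipid transport transcripts in *apob-S* and in *apob-M* against control, grouped by annotated role (down the page). Filled points passed the threshold on adjusted p, with 17 higher and 10 lower in *apob-S*, and 10 higher and 5 lower among those shown in *apob-M*. The 2 transcripts farthest from 0 are dd_Smed_v6_11210_0_1 on the right and dd_Smed_v6_4411_0_1 on the left.

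Transcripts annotated with lipid transport in general were the largest group. Relative to control, 7 of 16 tested were higher and 2 lower in *apob-S*, and 4 were higher in *apob-M*. In *apob-S* these were 43.8% and 12.5% of the group, against 13.5% and 15.7% of all tested transcripts. In *apob-M* the share called higher was 25%, against 7.05%. This group held 3 of the 4 most abundant lipid transport transcripts. Together with *npc2*, dd_Smed_v6_241_0_1, dd_Smed_v6_154_0_1 and dd_Smed_v6_390_0_1 took 59.3% to 65.1% of the counts of the whole list in each library. In bulk RNA of whole animals, more transcript per cell and more cells that express it cannot be told apart in any of these results.

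The dd_Smed_v6_241_0_1 and dd_Smed_v6_390_0_1 transcripts rose stepwise. dd_Smed_v6_241_0_1 was at 2257, 2286, 2179 and 2348 normalized CPM in *apob-S* libraries 1 to 4 and at 1842, 1887, 1957 and 1779.5 in *apob-M* libraries 1 to 4, against a range of 1471 to 1665 (median 1499) in the 6 control libraries. The 3 groups did not overlap, with *apob-S* highest and control lowest. Its log2 fold change from control was 0.57 for *apob-S* (edgeR adjusted p = 3.64e-10, SE 0.0342) and 0.29 for *apob-M* (edgeR adjusted p = 9.12e-06, SE 0.0343), and *apob-S* exceeded *apob-M* by 0.28 (edgeR adjusted p = 6.37e-05, SE 0.0378). dd_Smed_v6_390_0_1 was at 1610.5, 1609.6, 1538 and 1688 normalized CPM in *apob-S* and 1323, 1341, 1353 and 1217 in *apob-M*, against a range of 1037 to 1141 (median 1054) in control. Again the groups were separate, with log2 fold changes of 0.59 for *apob-S* (edgeR adjusted p = 2.45e-10, SE 0.0346) and 0.29 for *apob-M* (edgeR adjusted p = 8.17e-06, SE 0.0348). The difference between *apob-S* and *apob-M* was 0.30 (edgeR adjusted p = 3.74e-05, SE 0.0383). The ratio of their counts was between 1.39 and 1.46 in all 14 libraries. A read aligning to more than a single transcript was counted for each of them, and whether these transcripts share reads was not tested, so they may not be independent measurements.

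The transcript whose human best hit is perilipin-5 (PLIN5), a coat protein of lipid droplets, was dd_Smed_v6_154_0_1. It lay at 1549.8, 1669, 1675 and 1729 normalized CPM in *apob-S* and 1527, 1543, 1414 and 1472 in *apob-M*, against a range of 1359.8 to 1454 (median 1403) in control. All *apob-S* libraries were above all others, while *apob-M* overlapped with control. Its level was 1.18-fold that of control in *apob-S* (log2 0.24, edgeR adjusted p = 1.31e-05, SE 0.0326), and the value in *apob-M* was log2 0.09 (edgeR adjusted p = 0.0895). It was also higher in *apob-S* than in *apob-M* (log2 0.15, edgeR adjusted p = 0.00736). That last call was lost with both libraries rich in dd_Smed_v6_4_1_1 left out (edgeR adjusted p = 0.0852), with edgeR's exact test (0.298) and with library size alone (0.178).

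A transcript with CLN8 as its best hit, dd_Smed_v6_7852_0_1, had the largest rise of this group. CLN8 is a membrane protein of the endoplasmic reticulum that helps lysosomal enzymes leave it. dd_Smed_v6_7852_0_1 was at 25.2, 31.7, 32.6 and 30.3 normalized CPM in *apob-S* and 21.5, 23.7, 23.02 and 20.2 in *apob-M*, against a range of 16.6 to 19.6 (median 18.01) in control. The groups were separate, although the lowest *apob-S* library, replicate 1, was close to *apob-M*. The log2 fold change was 0.73 for *apob-S* (edgeR adjusted p = 1.7e-07, SE 0.0698), 0.29 for *apob-M* (edgeR adjusted p = 0.00906, SE 0.0719) and 0.44 between them (edgeR adjusted p = 7.03e-04, SE 0.0762).

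dd_Smed_v6_933_0_1 separated *apob-S* from both other groups. It was at 259, 218, 251 and 253 normalized CPM in *apob-S* and 179.8, 173, 199 and 183 in *apob-M*, against a range of 165 to 181 (median 179) in control. Every *apob-S* library exceeded every *apob-M* library, whereas *apob-M* and control overlapped. The rise was log2 0.47 over control (edgeR adjusted p = 5.3e-07, SE 0.0495) and 0.42 over *apob-M* (edgeR adjusted p = 5.2e-05, SE 0.0548), while *apob-M* against control gave 0.05 (95% interval −0.04 to 0.15). dd_Smed_v6_2300_0_1, a long transcript of 6924 bases, rose in both classes to a like extent. It averaged 284 ± 17.8 normalized CPM in *apob-S* and 294 ± 8.48 in *apob-M*, against 245 ± 3.97 in control (SD, n = 4, 4 and 6), or log2 0.21 in *apob-S* and 0.26 in *apob-M* (edgeR adjusted p = 3.07e-04 and 1.06e-04), and the difference between the classes was −0.05 (95% interval −0.13 to 0.04). The scarce dd_Smed_v6_30574_0_1 was at 4.06, 3.19, 3.36 and 4.40 normalized CPM in *apob-S* and 2.16, 4.25, 3.21 and 3.59 in *apob-M*, against a range of 2.204 to 3.20 (median 2.75) in control. These values overlapped among all groups, and the call for *apob-S* (log2 0.47, edgeR adjusted p = 0.0404, SE 0.168) was lost when *apob-S* replicate 1 or 4 or control replicate 2, 3, 5 or 6 was left out (edgeR adjusted p of 0.0525 to 0.126). It was also lost with library size alone (edgeR adjusted p = 0.0574) and with the replicate number as a block (edgeR adjusted p = 0.0544).

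Falls in this group were fewer. dd_Smed_v6_5175_0_1 was at 106, 131, 116 and 128 normalized CPM in *apob-S* and 153, 163, 169 and 165 in *apob-M*, against a range of 164 to 198 (median 171) in control. Its *apob-S* values lay below those of both other groups, and *apob-M* overlapped with control. The log2 change was −0.55 from control (edgeR adjusted p = 1.28e-06, SE 0.0617) and −0.43 from *apob-M* (edgeR adjusted p = 2.27e-04, SE 0.0667), the largest fall between *apob-S* and *apob-M* among the 54 transcripts. dd_Smed_v6_12439_0_1 was at 11.9, 11.7, 10.9 and 11.9 normalized CPM in *apob-S* and 12.9, 12.3, 11.3 and 12.3 in *apob-M*, against a range of 12.6 to 15.8 (median 13.7) in control. All *apob-S* values were below the control range, with a log2 change of −0.25 (edgeR adjusted p = 0.0105, SE 0.0704). dd_Smed_v6_20782_0_1 differed between the apob(RNAi) classes without passing the threshold against control in either. It was at 9.30, 10.2, 7.88 and 8.21 normalized CPM in *apob-S* and 12.5, 11.97, 10.7 and 10.1 in *apob-M*, against a range of 8.66 to 11.3 (median 9.11) in control. The *apob-S* and *apob-M* values overlapped slightly (log2 −0.34, edgeR adjusted p = 0.0327, SE 0.102), and the call was lost without *apob-M* replicate 1 or 2 or *apob-S* replicate 3 or 4 (edgeR adjusted p of 0.0897 to 0.113). Its rise in *apob-M* over control passed the threshold with DESeq2 (adjusted p = 0.0487). It also did so without *apob-M* replicate 4 or control replicate 1 (edgeR adjusted p = 0.0488 and 0.0205).

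The remaining 6 transcripts annotated with lipid transport in general were called in no comparison. Among them was dd_Smed_v6_10304_0_1, with the cholesterol and phospholipid exporter ABCA1 as its best hit. It averaged 47.8 ± 3.40 normalized CPM in *apob-S* and 45.1 ± 0.674 in *apob-M*, against 44.96 ± 1.12 in control (SD, n = 4, 4 and 6). Its log2 fold change was 0.09 in *apob-S* (95% interval 0.01 to 0.17, edgeR adjusted p = 0.120), and it passed the threshold there when *apob-S* replicate 4 was left out (log2 0.14, edgeR adjusted p = 0.00723). The other 5 were all scarce, with control means from 0.914 to 4.38 normalized CPM.

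**Figure D2:**
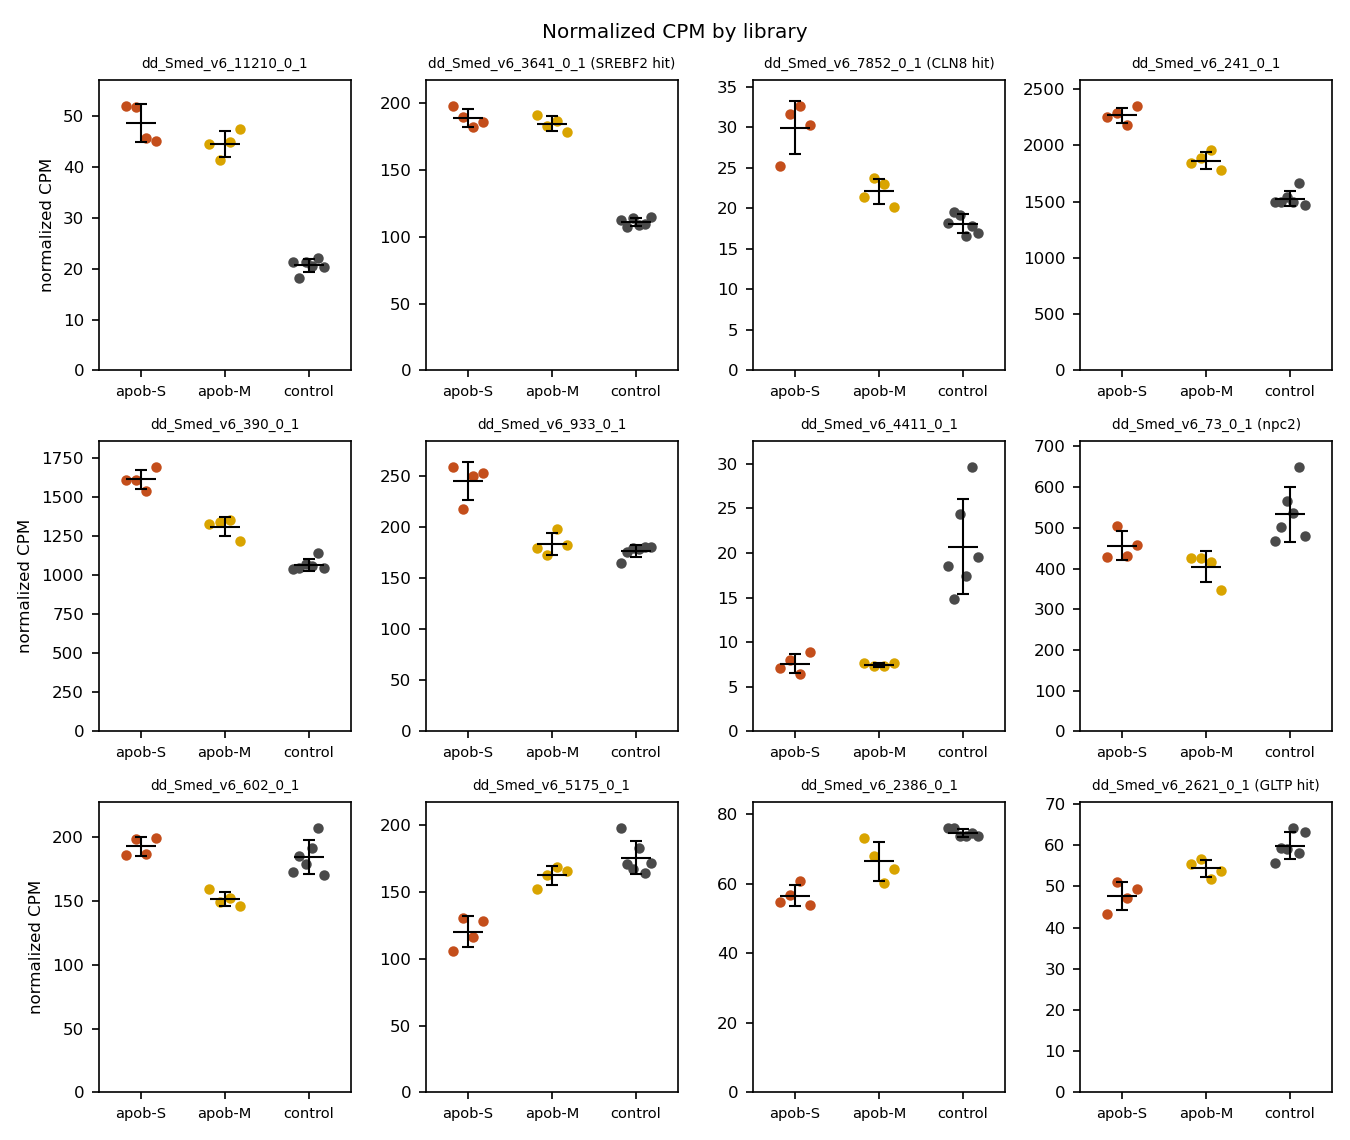
Normalized CPM (vertical axes, from 0) of 12 lipid transport transcripts in each *apob-S*, *apob-M* and control library. Points are libraries, and the bars give the mean and SD of 4, 4 and 6 libraries. The *apob-S*, *apob-M* and control values of dd_Smed_v6_241_0_1 and dd_Smed_v6_390_0_1 form separate steps, dd_Smed_v6_11210_0_1 and dd_Smed_v6_3641_0_1 are alike in *apob-S* and *apob-M* and far above control, and dd_Smed_v6_4411_0_1 is alike in both classes and far below control.

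Relative to control, 1 of 13 tested phospholipid transport transcripts was higher and 3 lower in *apob-S*, and 2 were lower in *apob-M*. These were 30.8% of the group in *apob-S* and 15.4% in *apob-M*, close to the 29.3% and 15.3% of all tested transcripts. dd_Smed_v6_2386_0_1 was at 54.8, 56.8, 60.8 and 53.7 normalized CPM in *apob-S* and 73.2, 67.96, 60.1 and 64.2 in *apob-M*, against a range of 73.6 to 75.8 (median 74.1) in control. Control values were tight and above all apob(RNAi) libraries, while the *apob-S* and *apob-M* values overlapped through *apob-M* replicate 3. The measured change was log2 −0.40 for *apob-S* (edgeR adjusted p = 3.49e-06, SE 0.0487), −0.17 for *apob-M* (edgeR adjusted p = 0.0243, SE 0.0483) and −0.23 between them (edgeR adjusted p = 0.00629, SE 0.0530). The call in *apob-M* was lost without *apob-M* replicate 3 or 4 or control replicate 2 (edgeR adjusted p of 0.0521 to 0.128), with edgeR's exact test (edgeR adjusted p = 0.0633), with library size alone (edgeR adjusted p = 0.164) and with both libraries rich in dd_Smed_v6_4_1_1 left out (edgeR adjusted p = 0.117). It was also lost with the replicate number as a block (edgeR adjusted p = 0.0800).

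dd_Smed_v6_13571_0_1 was at 8.82, 8.43, 9.04 and 10.4 normalized CPM in *apob-S* and 8.57, 8.09, 9.58 and 10.3 in *apob-M*, against a range of 9.71 to 12.6 (median 10.8) in control. Its groups overlapped, and the call for *apob-S* (log2 −0.26, edgeR adjusted p = 0.0377, SE 0.0921) was lost when *apob-S* replicate 1, 2 or 3, *apob-M* replicate 3 or control replicate 3 or 4 was left out (edgeR adjusted p of 0.0506 to 0.129), with library size alone (edgeR adjusted p = 0.0530) and with both libraries rich in dd_Smed_v6_4_1_1 left out (edgeR adjusted p = 0.124). dd_Smed_v6_7956_0_1 averaged 32.1 ± 2.28 normalized CPM in *apob-S* and 34.6 ± 0.798 in *apob-M*, against 37.6 ± 1.46 in control (SD, n = 4, 4 and 6), a log2 change of −0.23 for *apob-S* (edgeR adjusted p = 6.76e-04). dd_Smed_v6_8303_0_1 was the transcript of this group that rose, at 36.97 ± 0.870 normalized CPM in *apob-S* and 33.5 ± 1.00 in *apob-M*, against 31.3 ± 2.15 in control (log2 0.24 in *apob-S*, edgeR adjusted p = 5.13e-04). Another 8 phospholipid transport transcripts were called in no comparison.

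Aminophospholipid transport includes the flippases that keep phosphatidylserine and phosphatidylethanolamine on the inner face of membranes. Of 3 transcripts, 2 were higher in both apob(RNAi) classes. These were 66.7% of this small group in each class, against 13.5% of all tested transcripts called higher in *apob-S* and 7.05% in *apob-M*. dd_Smed_v6_10670_0_1, with the flippase ATP11B as its best hit, was at 23.4, 28.7, 24.00 and 29.97 normalized CPM in *apob-S* and 28.3, 27.5, 29.2 and 28.3 in *apob-M*, against a range of 18.4 to 24.03 (median 21.3) in control. The *apob-M* libraries were tight and above all controls, while the spread of *apob-S* reached into the control range. The log2 fold change was 0.32 for *apob-S* (edgeR adjusted p = 0.00291, SE 0.0753) and 0.42 for *apob-M* (edgeR adjusted p = 6.55e-04, SE 0.0749), and the classes differed by −0.10 (95% interval −0.26 to 0.06). dd_Smed_v6_5121_0_1 averaged 122 ± 8.37 normalized CPM in *apob-S* and 114 ± 7.67 in *apob-M*, against 96.5 ± 2.57 in control, with log2 fold changes of 0.33 and 0.24 (edgeR adjusted p = 2.64e-05 and 0.00162). dd_Smed_v6_16312_0_1 was scarce, at a control mean of 2.80 normalized CPM, and was not called.

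The lysophospholipid transporters gave the largest rise of the list. dd_Smed_v6_11210_0_1, annotated with lysophospholipid transport and with lipid transport across the blood-brain barrier, was at 51.9, 51.8, 45.8 and 45.04 normalized CPM in *apob-S* and 44.4, 41.3, 44.96 and 47.5 in *apob-M*, against a range of 18.2 to 22.1 (median 20.9) in control. The groups of apob(RNAi) libraries overlapped with each other, and the lowest of them, at 41.3, was above the highest control, at 22.1. Its level was 2.35-fold that of control in *apob-S* (log2 1.24, edgeR adjusted p = 9.62e-12, SE 0.0558) and 2.15-fold in *apob-M* (log2 1.11, edgeR adjusted p = 1.11e-10, SE 0.0562). *apob-S* exceeded *apob-M* by 0.13 (95% interval 0.01 to 0.24, edgeR adjusted p = 0.187), which did not pass the threshold. The other transcript with this annotation, dd_Smed_v6_17539_0_1, was at 5.38 ± 0.810 normalized CPM in *apob-S* and 5.16 ± 0.640 in *apob-M*, against 4.90 ± 1.076 in control, with a log2 change of 0.13 in *apob-S* (95% interval −0.16 to 0.42).

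Of 5 tested glycolipid transport transcripts, 3 were lower than control in *apob-S* and 3 in *apob-M*, or 60% of this small group each, against 15.7% and 8.24% of all tested transcripts. Among them, *npc2* (dd_Smed_v6_73_0_1), dd_Smed_v6_4411_0_1, dd_Smed_v6_602_0_1 and dd_Smed_v6_704_0_1 carried the same pair of annotations, glycolipid and phospholipid transport. The best hit of dd_Smed_v6_704_0_1 was NPC2, a small soluble protein that binds cholesterol inside lysosomes and hands it to the membrane protein NPC1. The sequence of *npc2* is given because it identifies this abundant transcript in other data. Shown are 100 codons (300 bases), 5′ to 3′, read from the first ATG of the expressed sequence tag that the study lists for it, which is at base 2 of the tag, with the 5 in-frame codons for cysteine (TGT or TGC) in capitals.
npc2: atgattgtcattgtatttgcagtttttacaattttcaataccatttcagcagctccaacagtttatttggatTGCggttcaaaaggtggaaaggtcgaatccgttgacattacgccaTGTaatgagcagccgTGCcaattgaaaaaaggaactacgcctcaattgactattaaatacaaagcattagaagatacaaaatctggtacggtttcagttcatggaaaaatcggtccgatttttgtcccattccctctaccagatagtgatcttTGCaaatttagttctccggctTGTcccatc

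The *npc2* transcript was the most abundant of the list per length, at 987 normalized CPM per kilobase in control, next to 981 for dd_Smed_v6_390_0_1, 972 for dd_Smed_v6_154_0_1 and 888 for dd_Smed_v6_241_0_1. Its normalized CPM was 429, 505, 431 and 458 in *apob-S* and 426, 427, 416 and 348 in *apob-M*, against a range of 467 to 648 (median 519) in control. The *apob-M* libraries lay below all controls, and *apob-S* libraries lay between *apob-M* and the upper controls, overlapping with control. The log2 change from control was −0.23 for *apob-S* (edgeR adjusted p = 0.0397, SE 0.0799) and −0.40 for *apob-M* (edgeR adjusted p = 0.00188, SE 0.0804). The call in *apob-S* was lost when *apob-S* replicate 1, 3 or 4, *apob-M* replicate 3 or control replicate 3, 4 or 5 was left out (edgeR adjusted p of 0.0524 to 0.122). It was also lost with DESeq2 (adjusted p = 0.0808) and with edgeR's exact test (edgeR adjusted p = 0.0942). Although every *apob-S* library was above every *apob-M* library, the difference did not pass the threshold (0.17, edgeR adjusted p = 0.237, SE 0.0872).

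dd_Smed_v6_4411_0_1 had the largest fall of the list. It was at 7.05, 8.03, 6.43 and 8.86 normalized CPM in *apob-S* and 7.68, 7.29, 7.31 and 7.65 in *apob-M*, against a range of 14.9 to 29.6 (median 19.04) in control. Control libraries varied most here, with a coefficient of variation of 25.9% against a median of 6.24% over the 54 transcripts, but none of them reached down to the apob(RNAi) range. Its level was 2.75-fold lower in *apob-S* (log2 −1.46, edgeR adjusted p = 6.08e-07, SE 0.155) and 2.77-fold lower in *apob-M* (log2 −1.47, edgeR adjusted p = 1.97e-06, SE 0.155). The classes differed by 0.01 (95% interval −0.34 to 0.37).

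dd_Smed_v6_602_0_1 fell in *apob-M* alone. It was at 186, 199, 187 and 199 normalized CPM in *apob-S* and 159, 149, 152 and 146 in *apob-M*, against a range of 171 to 207 (median 182) in control. The *apob-M* libraries were below all others, and *apob-S* libraries lay within the control range. The log2 fold change from control was 0.06 in *apob-S* (95% interval −0.03 to 0.16) and −0.28 for *apob-M* (edgeR adjusted p = 6.9e-04, SE 0.0506). Here the difference between the classes was itself past the threshold, with *apob-S* higher by 0.35 (edgeR adjusted p = 3e-04, SE 0.0551). dd_Smed_v6_704_0_1 averaged 92.7 ± 7.97 normalized CPM in *apob-S* and 89.9 ± 4.79 in *apob-M*, against 87.7 ± 7.98 in control (SD, n = 4, 4 and 6), with log2 fold changes of 0.08 (95% interval −0.05 to 0.21) and 0.04 (95% interval −0.09 to 0.17).

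The glycolipid transfer protein GLTP, which moves glycosphingolipids between membranes in the cytosol, was the best hit of dd_Smed_v6_2621_0_1. That transcript was at 43.2, 51.1, 47.1 and 49.4 normalized CPM in *apob-S* and 55.5, 56.5, 51.9 and 53.6 in *apob-M*, against a range of 55.7 to 64.05 (median 59.1) in control. The *apob-S* libraries were lowest and did not overlap with either group, while *apob-M* overlapped with control. The log2 difference was −0.33 between *apob-S* and control (edgeR adjusted p = 4.36e-05, SE 0.0499) and −0.19 between *apob-S* and *apob-M* (edgeR adjusted p = 0.0274, SE 0.0545). That call between the classes was lost without *apob-M* replicate 1 or 2 or *apob-S* replicate 1 or 3 (edgeR adjusted p of 0.0610 to 0.0992), with edgeR's exact test (edgeR adjusted p = 0.0546) and with library size alone (edgeR adjusted p = 0.0540).

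Transcripts annotated with lipid transport in lipid storage went in both directions. Of 6, 2 were above control and 1 lower in *apob-S*, and 1 was higher in *apob-M*. In either direction these were 50% of this small group in *apob-S* and 16.7% in *apob-M*, against 29.3% and 15.3% of all tested transcripts. dd_Smed_v6_3616_0_1 was the clearest of the 6, and its best hit was mucolipin-2 (MCOLN2), a cation channel of endosomes and lysosomes. It was at 200.1, 217, 209 and 223 normalized CPM in *apob-S* and 198, 203, 206 and 193.8 in *apob-M*, against a range of 156 to 173 (median 167) in control. Both classes were above all controls and overlapped with each other, with log2 fold changes of 0.35 for *apob-S* (edgeR adjusted p = 1.3e-06, SE 0.0399) and 0.27 for *apob-M* (edgeR adjusted p = 1.08e-04, SE 0.0400). dd_Smed_v6_6286_0_1 was at 19.1, 20.5, 20.8 and 23.1 normalized CPM in *apob-S* and 23.9, 22.95, 24.1 and 26.4 in *apob-M*, against a range of 24.3 to 25.6 (median 25.2) in control. *apob-S* was below control, with a log2 change of −0.27 (edgeR adjusted p = 6.81e-04, SE 0.0531). It was also below *apob-M* with a slight overlap, at a log2 difference of −0.22 (edgeR adjusted p = 0.0146, SE 0.0580), and that call was lost without *apob-M* replicate 4 or *apob-S* replicate 1 (edgeR adjusted p of 0.0590 to 0.0629), with both libraries rich in dd_Smed_v6_4_1_1 left out (edgeR adjusted p = 0.0656) and with only the 2 groups compared (edgeR adjusted p = 0.0565). For dd_Smed_v6_5888_0_1 the rise in *apob-S* was log2 0.11 (edgeR adjusted p = 0.0467), at 39.6 ± 1.49 normalized CPM in *apob-S* and 37.9 ± 0.679 in *apob-M*, against 36.7 ± 1.73 in control. That call was lost on leaving out any of 10 libraries (*apob-S* replicate 1, 3 or 4, *apob-M* replicate 1, 2 or 4, or control replicate 1, 3, 4 or 6, with edgeR adjusted p of 0.0508 to 0.144). It was also lost with DESeq2, limma-voom, edgeR's exact test, library size alone, no filter, only the 2 groups compared and the replicate number as a block (adjusted p of 0.0590 to 0.241). The other 3 were called in no comparison.

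Among the 9 regulators of lipid transport, 4 were above control and 1 lower in *apob-S*, and 2 were higher and 1 lower in *apob-M*. In *apob-S* these were 44.4% and 11.1% of the group, against 13.5% and 15.7% of all tested transcripts. In *apob-M* they were 22.2% and 11.1%, against 7.05% and 8.24%. dd_Smed_v6_3641_0_1, whose best hit was SREBF2, a transcription factor that turns on cholesterol synthesis and LDL receptor genes when sterols are low, was at 198, 189.6, 183 and 186 normalized CPM in *apob-S* and 192, 183, 187 and 178 in *apob-M*, against a range of 108 to 115 (median 111) in control. All apob(RNAi) libraries were far above all controls, and the classes overlapped. Its level was 1.70-fold that of control in *apob-S* (log2 0.76, edgeR adjusted p = 2.31e-11, SE 0.0368) and 1.66-fold in *apob-M* (log2 0.73, edgeR adjusted p = 1e-10, SE 0.0368), and the classes differed by 0.03 (95% interval −0.05 to 0.11). dd_Smed_v6_7709_0_1 carried the same annotation, regulation of lipid transport by negative regulation of transcription. It averaged 70.4 ± 4.64 normalized CPM in *apob-S* and 64.3 ± 6.83 in *apob-M*, against 56.8 ± 3.98 in control, with a rise of log2 0.31 for *apob-S* (edgeR adjusted p = 0.00111).

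dd_Smed_v6_11948_0_1, annotated as a negative regulator of lipid transport, fell. Its normalized CPM was 26.4, 25.3, 26.5 and 27.2 in *apob-S* and 30.6, 29.1, 33.7 and 29.4 in *apob-M*, against a range of 31.3 to 37.8 (median 34.4) in control. The *apob-S* libraries were below all others, and *apob-M* overlapped with control. The log2 fold change was −0.39 for *apob-S* (edgeR adjusted p = 8.44e-06, SE 0.0516), −0.17 for *apob-M* (edgeR adjusted p = 0.0293, SE 0.0509) and −0.22 between them (edgeR adjusted p = 0.0132, SE 0.0566). The call in *apob-M* was lost without *apob-M* replicate 1, 2 or 4 or control replicate 2 or 4 (edgeR adjusted p of 0.0657 to 0.0998), with library size alone (edgeR adjusted p = 0.0761), with no filter (edgeR adjusted p = 0.0503), with only the 2 groups compared (edgeR adjusted p = 0.0615) and with the replicate number as a block (edgeR adjusted p = 0.0766). The call between the classes was lost without *apob-M* replicate 3 (edgeR adjusted p = 0.0619) and with both libraries rich in dd_Smed_v6_4_1_1 left out (edgeR adjusted p = 0.144).

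Of the transcripts annotated as regulating lipid transport through positive regulation of transcription, dd_Smed_v6_1998_0_1 was higher in both classes. It averaged 152 ± 8.40 normalized CPM in *apob-S* and 150.5 ± 7.03 in *apob-M*, against 136 ± 4.56 in control, or log2 0.16 and 0.15 (edgeR adjusted p = 0.00757 and 0.0266). The call in *apob-M* was lost without *apob-M* replicate 1 or 4 or control replicate 3 or 5 (edgeR adjusted p of 0.0519 to 0.0995) and with the replicate number as a block (edgeR adjusted p = 0.0621). The calls in *apob-S* and *apob-M* were both lost with edgeR's exact test (edgeR adjusted p = 0.0646 and 0.158) and with library size alone (edgeR adjusted p = 0.0699 and 0.103). dd_Smed_v6_2111_0_1 averaged 81.2 ± 2.92 normalized CPM in *apob-S* and 76.97 ± 5.18 in *apob-M*, against 74.1 ± 3.14 in control. Its rise in *apob-S* (log2 0.13, edgeR adjusted p = 0.0359) was lost without *apob-S* replicate 3 or 4 or control replicate 1, 3, 4 or 5 (edgeR adjusted p of 0.0596 to 0.110), with edgeR's exact test (edgeR adjusted p = 0.112), with library size alone (edgeR adjusted p = 0.161) and with no filter (edgeR adjusted p = 0.0586). dd_Smed_v6_8954_0_1, with TRIAP1 as its best hit, a partner in carrying phosphatidic acid across the mitochondrial intermembrane space, was scarce and not called. It averaged 1.88 ± 0.577 normalized CPM in *apob-S* and 2.28 ± 0.351 in *apob-M*, against 2.25 ± 0.364 in control (log2 −0.25 in *apob-S*, 95% interval −0.63 to 0.13). The remaining 3 regulators were called in no comparison. Among them, dd_Smed_v6_3406_0_1 passed the threshold as higher in *apob-S* under some alternatives (edgeR adjusted p of 0.0325 to 0.0497).

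**Figure D3:**
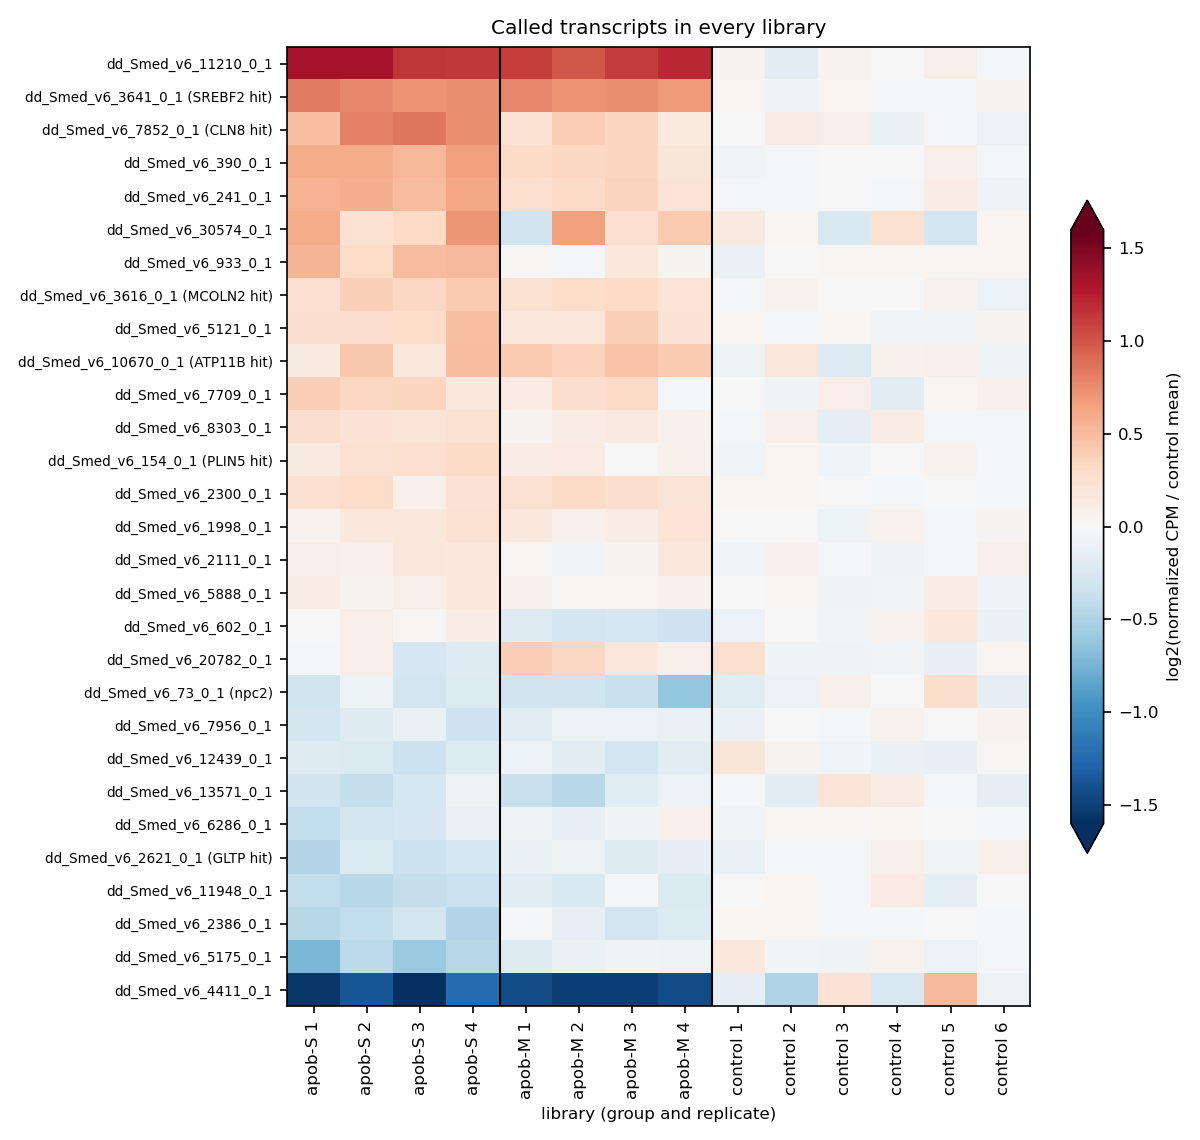
Log2 ratio of normalized CPM to the control mean (color, red above and blue below) for 29 of the 30 lipid transport transcripts called in any comparison (rows, ordered by log2 fold change in *apob-S*), in each of the 14 libraries (columns). dd_Smed_v6_11210_0_1 and dd_Smed_v6_3641_0_1 are red and dd_Smed_v6_4411_0_1 blue in all apob(RNAi) libraries, while dd_Smed_v6_602_0_1 is blue in *apob-M* and near the control level in *apob-S*.

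Between *apob-S* and *apob-M*, 12 transcripts differed. The 3 with the largest changes from control in each class, dd_Smed_v6_11210_0_1, dd_Smed_v6_3641_0_1 and dd_Smed_v6_4411_0_1, were not among them. The 6 higher in *apob-S* were dd_Smed_v6_7852_0_1, dd_Smed_v6_933_0_1, dd_Smed_v6_602_0_1, dd_Smed_v6_390_0_1, dd_Smed_v6_241_0_1 and dd_Smed_v6_154_0_1, of which 5 were annotated with lipid transport in general. The 6 lower in *apob-S* were dd_Smed_v6_5175_0_1, dd_Smed_v6_20782_0_1, dd_Smed_v6_2386_0_1, dd_Smed_v6_6286_0_1, dd_Smed_v6_11948_0_1 and dd_Smed_v6_2621_0_1, from 5 annotation groups. The largest of these differences were 1.35-fold for dd_Smed_v6_7852_0_1 and 1.35-fold lower in dd_Smed_v6_5175_0_1. Every *apob-S* library lay above every *apob-M* library for 8 transcripts and below for 3, or 14.8% and 5.56% of the list (20.4% in either direction), against 7.04% and 8.73% of all tested transcripts (15.8%).

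**Figure D4:**
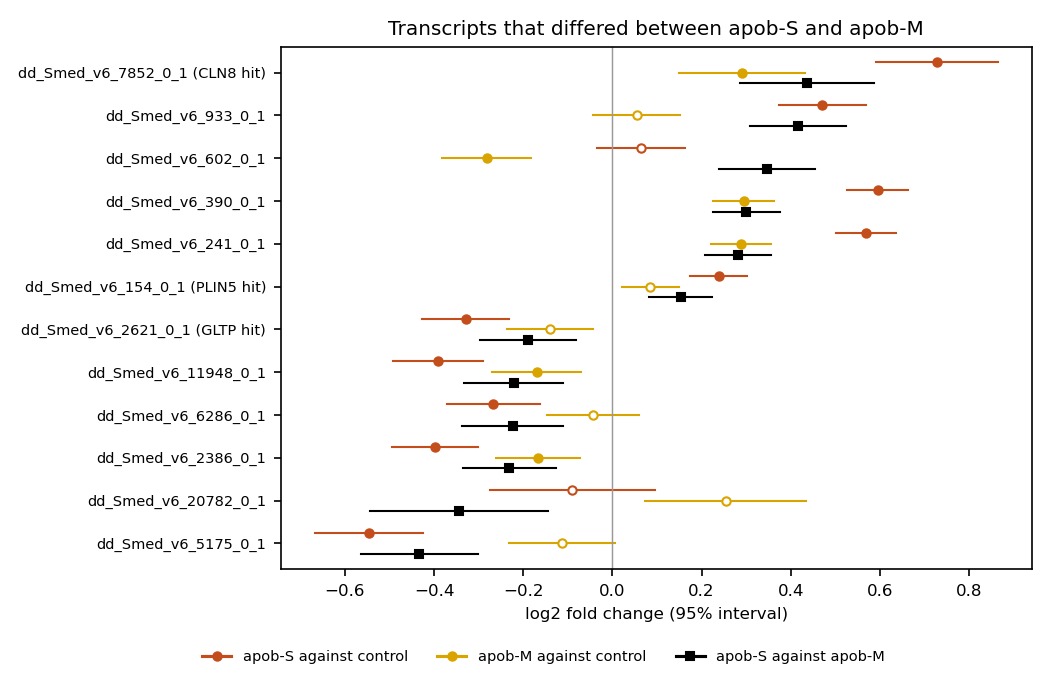
Log2 fold change with 95% interval (horizontal axis) for the 12 lipid transport transcripts called between *apob-S* and *apob-M* (down the page), in the 2 comparisons with control and the direct comparison of the classes. Filled symbols passed the threshold. dd_Smed_v6_602_0_1 and dd_Smed_v6_20782_0_1 lie on opposite sides of 0 in *apob-S* and *apob-M*.

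The summed level of the 54 transcripts was ordered by severity. It lay between 9047 and 9564 normalized CPM in *apob-S*, between 7981 and 8351 in *apob-M*, and between 7359 and 7943 in control, so that the groups did not overlap. This sum is mostly that of a few abundant transcripts. Taken transcript by transcript, the median log2 ratio to the control mean was between 0.04 and 0.10 in *apob-S* libraries. It was between 0.0076 and 0.07 in *apob-M* libraries and between −0.0149 and 0.0122 in control libraries, so that *apob-M* overlapped with control. The same median over all tested transcripts was between −0.0075 and 0.0073 in the 14 libraries. The list overlapped with the study's other lipid sheets, in that 22 of the 54 transcripts were also listed under cholesterol and 2 under triglyceride. Of those 22, 5 were above control and 4 lower in *apob-S*, and of the 32 others 12 were higher and 6 lower. Over all tested transcripts, 13.5% were called higher and 15.7% lower in *apob-S*. The parts of the list inside and outside the cholesterol sheet were not compared by a test.

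Of the 6 lipoprotein genes set aside at the start, 2 were above control and 3 lower in *apob-S*, and 3 were above control and 3 lower in *apob-M*, including the targets *apob-1* and *apob-2* among the lower ones. *apob-2* was at 374 ± 111 normalized CPM in *apob-S* and 439 ± 89.6 in *apob-M*, against 1187 ± 259.6 in control. *mttp* was at 149.5 ± 3.16 normalized CPM in *apob-S* and 117 ± 3.72 in *apob-M*, against 70.3 ± 1.23 in control, and *ldlr-1*, a lipoprotein receptor ortholog, at 118 ± 4.67 in *apob-S* and 83.05 ± 6.19 in *apob-M*, against 33.4 ± 2.03 in control (SD, n = 4, 4 and 6). Both rose in each class and were higher in *apob-S* than in *apob-M*. Among the other receptor orthologs, *ldlr-2* rose in *apob-M* (log2 0.15, edgeR adjusted p = 0.0146), a call lost without *apob-M* replicate 4 (edgeR adjusted p = 0.0691), with edgeR's exact test (edgeR adjusted p = 0.120) and with library size alone (edgeR adjusted p = 0.103). The *vldlr-1* transcript fell in *apob-S* (log2 −0.27, edgeR adjusted p = 3.83e-06) and in *apob-M* (log2 −0.18, edgeR adjusted p = 7.96e-04), where the call in *apob-M* was lost with edgeR's exact test (edgeR adjusted p = 0.0622).

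Cell type markers also differed between the groups. Of 3 intestine markers, *slc22a6* was higher in *apob-S* and *apob-M* (log2 0.35 and 0.25, edgeR adjusted p = 2.97e-06 and 3.53e-04), *nkx2.2* likewise (log2 0.32 and 0.12, edgeR adjusted p = 4.86e-06 and 0.0451), and *ctsla* was not called. Their summed level was between 2010 and 2328 normalized CPM in *apob-S*, between 2067 and 2321 in *apob-M*, and between 1995 and 2230 in control. Most of that sum was *ctsla*, with means of 1804 normalized CPM in *apob-S*, 1846 in *apob-M* and 1844 in control. The 2 neoblast markers summed to between 426 and 446 normalized CPM in *apob-S*, between 388 and 440 in *apob-M*, and between 404 and 421 in control, and of these *tgs-1* was higher in both classes and *piwi-1* was not called. Most of this sum was *piwi-1*, since *tgs-1* averaged 10.3 normalized CPM in *apob-S*, 10.5 in *apob-M* and 6.59 in control. The epidermal progenitor marker *prog-1* was at 171 ± 15.1 normalized CPM in *apob-S* and 247 ± 17.4 in *apob-M*, against 287 ± 20.8 in control, and the pharynx marker *laminin* at 31.2 ± 0.924 in *apob-S* and 44.98 ± 5.94 in *apob-M*, against 60.8 ± 8.43 in control, and both were lower in each class. The neuron marker *ChAT* was at 90.95 ± 2.63 normalized CPM in *apob-S* and 103 ± 8.24 in *apob-M*, against 88.4 ± 6.90 in control, and was called higher in *apob-M*. The calls in *apob-M* were lost without *apob-M* replicate 4 for *ChAT* (edgeR adjusted p = 0.0636), without *apob-M* replicate 1 or 4 or control replicate 2 for *prog-1* (edgeR adjusted p of 0.0521 to 0.0853), and for *nkx2.2* on leaving out any of 9 libraries (*apob-S* replicate 1 or 3, *apob-M* replicate 2, 3 or 4, or control replicate 1, 3, 5 or 6, with edgeR adjusted p of 0.0505 to 0.112). No marker was at 0 in any library. The part of cell composition in the changes of the lipid transport transcripts was not tested.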

How the data were processed

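RNA-seq of 14 libraries of whole planarians was used, grouped by their labels into 4 *apob-S*, 4 *apob-M* and 6 control libraries. The authors used BBDuk for trimming, Bowtie2 2.3.1 for alignment to the unique dd_Smed_v6 transcripts (all alignments reported), and counted read pairs with featureCounts (Subread 1.6.3), also those mapping to or overlapping several transcripts. The deposited values are unnormalized counts for 28069 transcripts, which multi-mapped reads can raise for similar transcripts. The authors' own table of comparisons (fold changes and false discovery rates) was not used.

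Tests covered the 18436 transcripts at 1 CPM or more in at least 4 libraries, and were made in R 4.3.3 by the quasi-likelihood test of edgeR 4.0.16 with TMM normalization, a joint fit of all 14 libraries by group, and Benjamini-Hochberg adjustment over all of them at 0.05. Normalized CPM is the count scaled to library size (CPM) after TMM scaling, given as mean ± SD over libraries. SE is the absolute log2 fold change divided by the square root of the F statistic, and 95% intervals are 1.96 SE to each side. The factor 1.96 ignores the limited degrees of freedom of the F test, so the intervals are approximate and somewhat too narrow. For *npc2* between *apob-S* and *apob-M* the interval was 0.002 to 0.344, while the quasi-likelihood test gave an unadjusted p of 0.0624. Calls rest on the test alone. The test was also run on counts simulated from its own fitted spread, with known changes larger than most of those called here. Only *apob-S* against control was looked at, so the simulation does not bear on smaller changes or on the other comparisons. The alternatives were also run for the lipoprotein genes and markers. The spread between replicates exceeded counting noise for every pair (lowest chi-square per degree of freedom 2.96), and each replicate was a separate pool of animals. Control replicates 1 and 2 stood apart from control replicates 3 to 6, with values of 27.6 to 44.1 between these sets. The value was 7.04 between control replicates 1 and 2, and 2.96 to 8.96 among control replicates 3 to 6. Values were larger between *apob-M* replicate 3 and the other *apob-M* libraries (104 to 139). Between *apob-S* replicate 2 and the other *apob-S* libraries they were 53.0 to 83.5. These values include dd_Smed_v6_4_1_1, which was abundant in control replicates 1 and 2, *apob-M* replicate 3 and *apob-S* replicate 2. Its part in them was not tested.

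The transcripts and marker lists were chosen with earlier results of these data known. Transcripts called in any comparison are named, except 1 that is counted but not reported here, with values per library for the 8 largest rises and falls in *apob-S*, the 4 largest in *apob-M*, those called between *apob-S* and *apob-M*, and *npc2*. Uncalled transcripts are given by counts, or by value where a best hit or annotation partner is described. Best hits came from tables held in part. Alternatives were DESeq2 1.42.0, limma-voom (limma 3.58.1), edgeR's exact test, size factors of DESeq2, library size alone, a filter at 5 CPM or none, only the 2 groups compared, the replicate number as a block, a threshold of 0.01, each library left out in turn, and, chosen after seeing the data, both libraries rich in dd_Smed_v6_4_1_1 left out. Coordinates are not given, since no genome was used.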

Additional observations from a re-analysis of the deposited data

Results flagged for a closer look

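In each group of 4 or 6 libraries, the highest and lowest value of each lipid transport transcript was set against the rest of its group. This was done on log2 normalized CPM with a prior count of 2, and the values below are normalized CPM. A library stood apart by Dixon's criterion in 7 of 162 groups, where chance gives about 1 in 20. *apob-S* replicate 4 was highest for dd_Smed_v6_5121_0_1, at 134 normalized CPM, against 117 to 118 in the other *apob-S* libraries. *apob-M* replicate 4 was lowest for *npc2* (dd_Smed_v6_73_0_1), at 348 normalized CPM, against 416 to 427. *apob-M* replicate 1 was highest for the scarce dd_Smed_v6_26550_0_1, at 5.31 normalized CPM, against 4.59 to 4.70. Control replicate 5 was highest for both dd_Smed_v6_241_0_1, at 1665 normalized CPM against 1471 to 1540.4, and dd_Smed_v6_390_0_1, at 1141 against 1037 to 1070.4. The counts of these 2 transcripts kept a near-constant ratio, so they may not be separate. Control replicate 1 was lowest for dd_Smed_v6_933_0_1, at 165 normalized CPM against 176 to 181, and control replicate 4 was lowest for dd_Smed_v6_37907_0_1, at 0.867 against 1.59 to 1.84. Control replicate 5 held the highest control value of 15 of the 54 transcripts, and the other controls of 7 to 9 each.

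The 2 apob(RNAi) classes differed from each other, by the test of the difference itself, for 12 transcripts. In *apob-S* against *apob-M*, the log2 difference was 0.44 for dd_Smed_v6_7852_0_1, 0.42 for dd_Smed_v6_933_0_1, 0.35 for dd_Smed_v6_602_0_1, 0.30 for dd_Smed_v6_390_0_1, 0.28 for dd_Smed_v6_241_0_1 and 0.15 for dd_Smed_v6_154_0_1. It was −0.43 for dd_Smed_v6_5175_0_1, −0.34 for dd_Smed_v6_20782_0_1, −0.23 for dd_Smed_v6_2386_0_1, −0.22 for dd_Smed_v6_6286_0_1, −0.22 for dd_Smed_v6_11948_0_1 and −0.19 for dd_Smed_v6_2621_0_1. The 2 for which the classes lay on opposite sides of control were dd_Smed_v6_602_0_1, called lower in *apob-M* (−0.28) with 0.06 in *apob-S*, and dd_Smed_v6_20782_0_1, at 0.25 in *apob-M* and −0.09 in *apob-S*, neither past the threshold.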

How the results depend on the processing

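Of the 55 calls of lipid transport transcripts over the 3 comparisons, 39 held under all 25 alternatives, and none of the 55 changed direction. Some values not called in the main analysis passed the threshold under at least 1 alternative. In *apob-M* against control these were dd_Smed_v6_13571_0_1, dd_Smed_v6_154_0_1, dd_Smed_v6_20782_0_1, dd_Smed_v6_2621_0_1, dd_Smed_v6_7709_0_1 and dd_Smed_v6_7956_0_1. They were dd_Smed_v6_10304_0_1 and dd_Smed_v6_3406_0_1 in *apob-S* against control, and dd_Smed_v6_10304_0_1 and dd_Smed_v6_8303_0_1 between the classes. The transcripts lower in *apob-M* than in control, 6 in the main analysis, numbered 3 with library size alone and 3 at a threshold of 0.01, and of the transcripts for which *apob-S* was below *apob-M*, 2 of 6 were left at 0.01. Over leave-one-out settings, between 14 and 18 transcripts were higher and between 8 and 10 lower in *apob-S* than in control, between 9 and 11 higher and between 4 and 8 lower in *apob-M* than in control, while between the classes 6 or 7 were higher and 4 to 6 lower. Among all tested transcripts, leaving out each library in turn gave 2159 to 2619 higher and 2565 to 2901 lower in *apob-S*. The main analysis gave 2496 and 2902 there. These ranges were 1053 to 1361 and 1064 to 1645 in *apob-M*, and 735 to 966 and 897 to 1264 between the classes. Without both libraries rich in dd_Smed_v6_4_1_1, 18 of the list were higher and 9 lower in *apob-S* (2280 and 2622 over all transcripts). In *apob-M* these were 10 and 4 (942 and 1091 over all), and between the classes 5 and 4 (811 and 1116 over all). Over all tested transcripts, calls in *apob-M* against control were 1299 higher and 1520 lower, against 864 and 931 with library size alone and 697 and 840 at 0.01. In *apob-S* against *apob-M* they were 954 and 1265, against 583 and 1062 with library size alone and 579 and 688 at 0.01. The replicate numbers did not pair the libraries (correlation of same-numbered deviations from −0.198 to 0.125, with at most 1 of 4 libraries closest to its own number). With the replicate number as a block, 10 were higher and 3 lower in *apob-M* than in control (791 and 849 over all transcripts). There were 15 and 10 in *apob-S* against control (2113 and 2529 over all), and 6 and 6 between the classes (852 and 1119 over all). The cause of these shifts was not tested. At 0.01 fewer transcripts could be called by construction. The filter at 5 CPM left 45 of the 54 transcripts to be tested. Under it, 10 were higher and 8 lower in *apob-M* than in control (1344 and 1626 over all transcripts). In *apob-S* against control there were 17 and 10 (2470 and 2739 over all). Transcripts below 10 CPM had wide intervals, and their lack of calls sets no limit on small changes.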
